A study of Saccharomyces cerevisiae with 27 samples.

Results

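The cytosolic ribosomal protein genes of budding yeast (Saccharomyces cerevisiae) were taken from the gene tables by symbol: RPL for the large 60S subunit, RPS for the small 40S subunit, and RPP for the acidic stalk of the 60S subunit, each with an A or B ending where the genome holds a duplicate. The rule found 138 of the 5995 genes listed. Of these, 137 are ribosomal protein genes (76 RPL, 56 RPS and 5 stalk genes), and the other is RPP1, which encodes a subunit of the tRNA-processing enzyme RNase P and is given apart. The 137 genes form 59 A and B pairs and 19 genes with 1 copy, and 89 of them carry an intron. Messenger RNA was measured in 27 libraries, 3 from individual colonies in each of 9 groups of strain and carbon source.

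The LCY002 strain holds, in a BY4741 background, an array of 40 genes (galactose use, glycolysis and ergosterol synthesis) borne on a centromeric plasmid marked with HIS3. LCY001 holds the HIS3 plasmid alone in the same background. BY4741 is the laboratory strain without a plasmid. All 3 carry his3Δ1, leu2Δ0, met15Δ0 and ura3Δ0. Overnight cultures were diluted into glucose, galactose or ethanol/glycerol at an OD600 of 0.1 and collected at about 1.0. The overnight medium stated is SC-His, which lacks histidine. BY4741 (his3Δ1, no HIS3 plasmid) needs histidine, so its overnight medium is uncertain. No source states whether the final cultures held histidine. No ribosomal protein gene is on the array. LEU2, URA3 and MET17 (the gene of met15Δ0) had 0 counts in all 27 libraries, which follows the labels. HIS3 ran from 411 to 686 CPM in LCY002, 1050 to 1490 CPM in LCY001 and 26.8 to 52.8 CPM in BY4741 (CPM, here scaled to the library total). Library totals ran from 14484847 to 16219263 expected counts.

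Ribosomal protein genes are the most heavily transcribed protein-coding class of a growing yeast cell, and their levels follow nutrient supply. Their promoters are known for the factors Rap1, Fhl1 and Ifh1, and for control by the TOR and protein kinase A pathways. Most of the duplicates date from an ancient genome duplication, and the copies of a pair encode the same or nearly the same protein. In these data 21 of the 59 pairs encode identical proteins, and identity over the coding sequence had a median of 93.2% (lowest 70.7%, highest 99.4%).

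RSEM, the program behind the deposited counts, shares out reads that match both copies, so the division between near-identical copies is an estimate. Counts are given as CPM, the usual depth-scaled count, scaled by TMM, and levels between genes as TPM, which also divides by length. Of the tested members, 16 carry a transcript that the submitters added to the annotation, and the effective length of 11 of these differed by more than 1.1 fold between groups, up to 2.07 fold for RPL14B. Their count changes therefore include a change in which transcript was counted. The text marks them as carrying an added transcript and gives TPM beside the counts of some. The other 117 tested members and the 45 pairs free of such transcripts carry the statements on changes of paralog ratios below, except where pairs with an added transcript are named. No source states whether strand was recorded, and RPL7A, RPL7B and RPS22B hold a small nucleolar RNA gene within their span, so their counts are uncertain.

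Of the 137 genes, 133 had enough counts to be tested. RPL41A and RPL41B had 0 counts in every library. With a coding sequence of 78 bases they leave an effective length of 9.5 bases for the fragments sequenced. RPS28B had 7 counts and RPS29B 13 counts over all libraries. RPS28B and RPS29B have the same effective lengths as RPS28A and RPS29A, 92.5 and 65.3 bases, and those A copies were tested. Why RPS28B and RPS29B had so few counts was not tested. The counts of these 4 genes were too low to test and say nothing of their true level.

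In BY4741 in glucose the median ribosomal protein gene stood at 2220 TPM, against 41.4 TPM for the median of all genes. Ribosomal protein genes made up 76 of the 100 highest genes and 119 of the 200 highest. The highest was RPS26A, a 40S protein gene, at 9440 ± 636 TPM (SD, n = 3). RPL33A at 7100 ± 53.5, the ubiquitin fusion gene RPS31 at 6740 ± 438 and RPS15 at 6380 ± 251 TPM were also among the highest. RPS31 and RPS15 lay within their spread of each other. The lowest tested member was RPL15B at 83.3 ± 3.18 TPM, next to RPL29 at 89.3 ± 6.93 TPM, within their spread. RPP1 stood at 79.8 ± 0.786 TPM, rank 1794 of all genes, far from the class whose symbol it shares.

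The copies of most pairs were used unequally. In BY4741 in glucose the A copy gave the larger TPM in 34 of 56 measured pairs and the B copy in 22, and in 24 pairs the A share lay between 40% and 60%. RPL12 (A share 50.2% ± 0.629), RPS4 (49.5% ± 0.206) and RPS24 (50.8% ± 0.487) were the most even. RPL15 (98.0% ± 0.0807), RPL22 (96.6% ± 0.295) and RPS9 (4.95% ± 0.062) were the least even. RPL22A and RPS9B carry added transcripts, as do members of 11 of the 56 pairs. For such pairs the larger copy can depend on the scale. The A share by TPM was 68.7% for RPL14 and 64.6% for RPL40. By counts the B copy was larger, at 735 ± 6.67 CPM for RPL14B against 664 ± 49.7 CPM for RPL14A. RPL40B had 1840 ± 91.3 CPM against 1640 ± 151 CPM for RPL40A. RPL12 encodes a protein of the stalk base, RPS4 and RPS24 encode 40S proteins, RPL15 and RPL22 encode 60S proteins, and RPS9 encodes a 40S protein. Shares were stable across the 9 groups: the median range of group means was 3.88 percentage points over the 45 pairs free of added transcripts, and it exceeded 10 points in 2, RPL9 and RPL8.

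RPL9 was the pair whose copies parted most, and its sequences are shown because the separate counting of the copies rests on their differences. RPL9A (gene ID 852730, build R64, chromosome VII, 227754 to 228329, minus strand) and RPL9B (gene ID 855658, chromosome XIV, 499681 to 500256, plus strand) each have 1 coding exon and no intron. They encode a 60S protein of 191 residues with 4 differences between the copies, and their coding sequences are 93.75% identical. Of all 50-base windows in the RPL9A coding sequence, 14% also occur in RPL9B. The stretch of coding bases 514 to 573, with the 10 differing bases in capitals, reads as follows from the RefSeq genome, build R64.
RPL9A: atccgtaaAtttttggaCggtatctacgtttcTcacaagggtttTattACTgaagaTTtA
RPL9B: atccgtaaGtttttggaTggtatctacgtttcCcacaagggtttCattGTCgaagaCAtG
The 2 lines lie at chrVII:227757-227816 on the minus strand and chrXIV:500194-500253 on the plus strand.

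RPL9A had 323, 305 and 343 CPM in the 3 ethanol/glycerol libraries of LCY002, against 1030, 1040 and 1090 CPM in glucose. In LCY001 the values were 426, 429 and 432 CPM in ethanol/glycerol and 1130, 1150 and 1040 CPM in glucose. In BY4741 they were 316, 322 and 423 CPM in ethanol/glycerol and 1310, 1230 and 1120 CPM in glucose. Every ethanol/glycerol library stood far below every glucose library of the same strain. RPL9B behaved differently. It had 312, 304 and 324 CPM in ethanol/glycerol and 300, 285 and 314 CPM in glucose in LCY002, where the groups overlapped. In LCY001 it had 377, 382 and 390 CPM in ethanol/glycerol, against 249, 267 and 232 CPM in glucose. In BY4741 it had 360, 347 and 384 CPM in ethanol/glycerol, against 304, 306 and 279 CPM in glucose. In LCY001 and BY4741 the RPL9B libraries did not overlap and ethanol/glycerol was higher.

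The fitted log2 fold changes of RPL9A in ethanol/glycerol against glucose were -1.70 ± 0.08 (SE) in LCY002, -1.37 ± 0.08 in LCY001 and -1.79 ± 0.08 in BY4741, the largest falls of any member in each strain (edgeR, largest adjusted p 1.46e-14). RPL9B rose by 0.62 ± 0.05 in LCY001 and 0.30 ± 0.05 in BY4741 (adjusted p 5.31e-11 and 1.4e-05), while 0.06 ± 0.05 in LCY002 was not called (adjusted p 0.257). It was the only member without an added transcript that was called lower in none of the 3 strains. The log2 ratio of RPL9A to RPL9B changed by -1.77 in LCY002, -1.99 in LCY001 and -2.10 in BY4741, each with an SE of 0.06 (limma over 637 paralog pairs, largest adjusted p 7.78e-19). The A copy accordingly gave 50.8% ± 0.68 of the pair's TPM in ethanol/glycerol in LCY002 against 77.9% ± 0.56 in glucose. In LCY001 it gave 52.8% ± 0.255 against 81.6% ± 0.444, and in BY4741 49.1% ± 2.97 against 80.5% ± 0.608. The third BY4741 library in ethanol/glycerol lay apart from the other two, at 52.5% against 46.8% and 48.1%. The summed counts of the pair still fell, by 1.1 ± 0.06, 0.75 ± 0.06 and 1.09 ± 0.06 on the log2 scale in LCY002, LCY001 and BY4741.

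**Figure D1:**
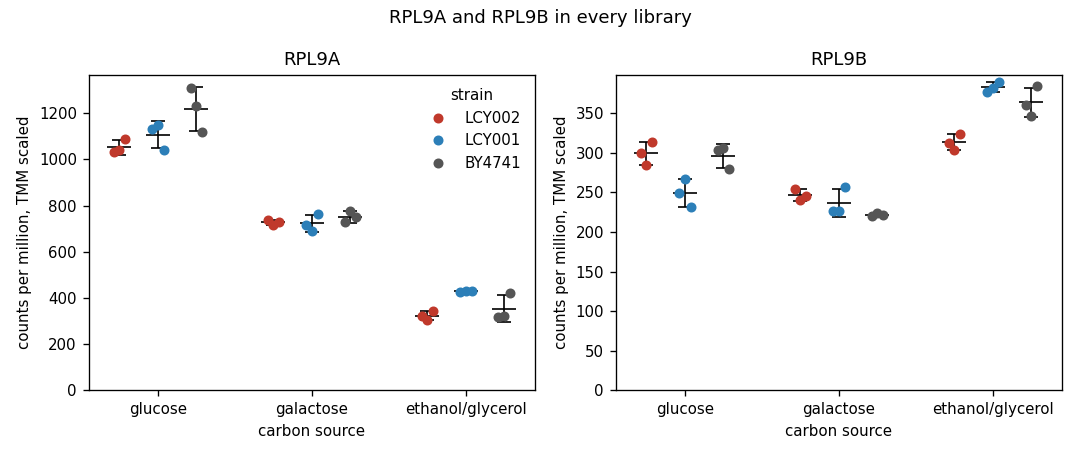
CPM (counts scaled by TMM, linear axis from 0) of RPL9A and RPL9B in each of the 27 libraries, by carbon source and strain; bars give the mean and SD of 3 libraries. RPL9A in ethanol/glycerol lies between 305 and 432 CPM in every library and below every glucose library, while RPL9B is higher in ethanol/glycerol than in glucose in LCY001 and BY4741.

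In galactose the same shift was smaller than in ethanol/glycerol. RPL9A fell by 0.53 ± 0.08, 0.62 ± 0.08 and 0.70 ± 0.08 on the log2 scale against glucose in LCY002, LCY001 and BY4741. The log2 ratio of A to B changed by -0.25, -0.54 and -0.28 (SE 0.06 each, limma, largest adjusted p 0.000445). The upstream region of RPL9A and RPL9B, a window of 300 bases that starts 400 bases before the start codon, is shown because the copies, which encode nearly the same protein, moved apart. The Rap1 motif ACCCNNACA, searched on both strands, has 1 match in the RPL9A window (in capitals, on the reverse strand of the printed line) that begins 310 bases before the start codon, and none in the RPL9B window. A match is a string of letters and no evidence of binding. The windows are chrVII:228430-228729 on the minus strand and chrXIV:499281-499580 on the plus strand of build R64, from RefSeq.
RPL9A: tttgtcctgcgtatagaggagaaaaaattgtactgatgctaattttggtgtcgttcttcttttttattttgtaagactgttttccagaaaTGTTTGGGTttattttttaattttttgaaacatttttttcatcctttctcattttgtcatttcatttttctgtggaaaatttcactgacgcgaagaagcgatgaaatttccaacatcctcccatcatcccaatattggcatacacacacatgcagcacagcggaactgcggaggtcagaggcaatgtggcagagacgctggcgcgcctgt
RPL9B: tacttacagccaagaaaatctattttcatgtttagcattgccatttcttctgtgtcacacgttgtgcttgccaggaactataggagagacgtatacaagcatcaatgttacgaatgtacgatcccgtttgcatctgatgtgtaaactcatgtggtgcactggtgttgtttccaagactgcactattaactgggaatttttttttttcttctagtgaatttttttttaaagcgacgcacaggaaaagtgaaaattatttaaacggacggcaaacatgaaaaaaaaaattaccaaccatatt
Over all 137 ribosomal protein genes 44 windows (32.1%) held this motif, against 236 of 5979 windows (3.95%) over all genes. The windows of RPL15A and RPL15B, a pair treated below, held no match to it. A link between the motif and the shift of a pair was not tested. Of the other motifs searched on both strands, the Stb3 element AAAATTTT was in 8.76% of ribosomal protein windows and 9.07% of all windows, and the PAC element GCGATGAG in 0.73% and 3.48%. The Reb1 motif TTACCCG was in 4.38% and 8.95%, and a short consensus for Abf1 in 13.9% and 17.3%.

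Other pairs shifted less. Over the 45 pairs free of added transcripts, 29 were called in ethanol/glycerol against glucose in LCY002, 23 in LCY001 and 27 in BY4741, which is 64.4%, 51.1% and 60% of them. Over all pairs of the genome free of such transcripts the shares called were 82.4%, 78.8% and 81.6%. With the pairs that hold an added transcript the counts were 37, 31 and 36 of 56, against a background of 81.5%, 78% and 81.2%. The share of ribosomal protein pairs called was thus lower than that of paralog pairs at large. Their shifts were also smaller: the median absolute change of the log2 ratio was 0.15, 0.15 and 0.13 in LCY002, LCY001 and BY4741, against 0.67, 0.51 and 0.66 over all pairs. Here and below, the pairs at large were not matched to the ribosomal protein pairs for sequence identity or level. Of the 45 pairs, 18 were called in the same direction in all 3 strains, 6 with a higher and 12 with a lower share of the A copy, and 0 were called in opposite directions.

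RPL15 (a 60S protein gene pair, 93.2% identical over the coding sequence) was next. RPL15B had 46.2, 52.8 and 46.4 CPM in ethanol/glycerol in LCY002 against 62, 59.6 and 62 CPM in glucose, 56.6, 53.8 and 56.3 against 52.7, 59.8 and 47.6 CPM in LCY001, and 43.1, 48.7 and 53.8 against 55.8, 53.9 and 49.1 CPM in BY4741. The groups of RPL15B overlapped in LCY001 and BY4741 but not in LCY002. RPL15B was called lower in LCY002 and not called in the other two strains. RPL15A, the major copy, fell by 1.05 ± 0.06, 0.77 ± 0.05 and 1.12 ± 0.06 on the log2 scale in LCY002, LCY001 and BY4741. The log2 ratio of A to B changed by -0.71, -0.83 and -0.99 (SE 0.08 each, limma, largest adjusted p 1.84e-08). With RPL15B at such a low level, the A share moved only to 95.9% ± 0.297 in LCY002, 96.0% ± 0.172 in LCY001 and 96.1% ± 0.252 in BY4741 in ethanol/glycerol, against 97.5% ± 0.0355, 97.7% ± 0.255 and 98.0% ± 0.0807 in glucose. The copies are told apart by differences such as the 10 in coding bases 555 to 614, in capitals, at chrXII:201977-202036 and chrXIII:509735-509794, both on the minus strand.
RPL15A: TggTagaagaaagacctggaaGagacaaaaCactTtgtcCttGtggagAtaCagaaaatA
RPL15B: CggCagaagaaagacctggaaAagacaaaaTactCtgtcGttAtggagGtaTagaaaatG

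RPL8, which encodes a 60S protein and whose B copy is the larger, moved the other way. Its A share was 31.3%, 30.4% and 30.9% in the ethanol/glycerol libraries of LCY002, against 23.3%, 23.7% and 24.0% in glucose. In LCY001 it was 33.5%, 32.7% and 34.1% against 24.1%, 24.6% and 23.4%, and in BY4741 33.1%, 33.6% and 32.9% against 22.7%, 22.8% and 22.4%. No library overlapped, and the log2 ratio changed by 0.52, 0.67 and 0.77 (SE 0.04 each, limma, largest adjusted p 1.59e-12). RPS22, a 40S pair, changed by -0.49, -0.50 and -0.73 (SE 0.06 each) in LCY002, LCY001 and BY4741. Its ratios here and below are uncertain, as RPS22B holds a small nucleolar RNA gene within its span. RPS14, a 40S pair whose B copy is known to be held down by its own protein, changed by 0.45, 0.35 and 0.39 (SE 0.06 each). RPL1, which encodes the protein of the L1 stalk, changed by -0.37, -0.54 and -0.56 (SE 0.04 each). The RPL1 copies are 99.39% identical and 81.0% of their 50-base windows are shared, so their division is the least certain of those named.

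**Figure D2:**
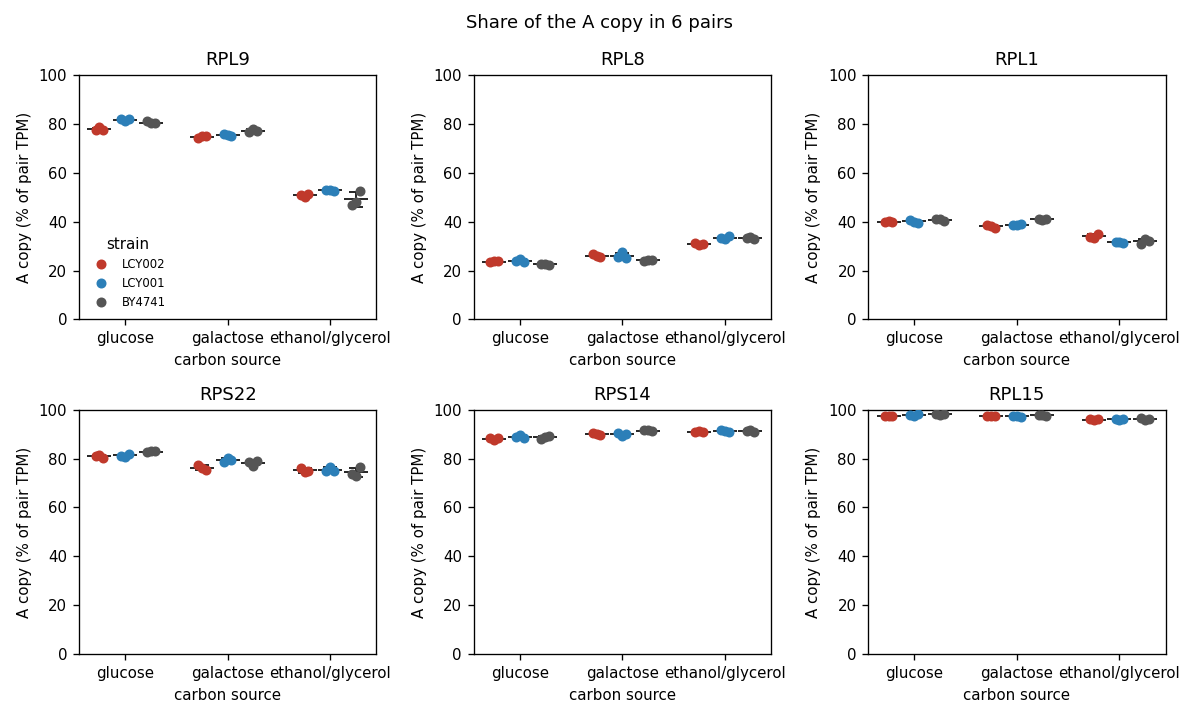
Share of the A copy in the summed TPM of 6 pairs free of added transcripts, in percent, for each of the 27 libraries by carbon source and strain; bars give the mean and SD of 3 libraries. RPL9 lies between 46.8% and 53.1% in ethanol/glycerol and between 77.5% and 82% in glucose, and group means of the other 5 pairs differ by at most 10.8 points.

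In galactose against glucose, 17 of 45 pairs were called in LCY002, 19 in LCY001 and 19 in BY4741, which is 37.8%, 42.2% and 42.2%, against 59.9%, 60.5% and 66.2% of all such pairs. With the added transcripts included the counts were 23, 26 and 26 of 56, against 59.5%, 60.4% and 65.5%. RPS22 changed by -0.40 ± 0.06, -0.18 ± 0.06 and -0.43 ± 0.06 and RPS14 by 0.30 ± 0.06, 0.16 ± 0.06 and 0.43 ± 0.06 in LCY002, LCY001 and BY4741. RPS19, a 40S pair, changed by 0.16 ± 0.06, 0.31 ± 0.06 and 0.29 ± 0.06. Each strain's change rests on its own libraries, so the strains can be set side by side as a description over pairs of 1 fit. Across the 45 pairs Pearson's r on galactose was 0.57 between LCY002 and LCY001, 0.73 between LCY001 and BY4741 and 0.82 between LCY002 and BY4741 (Spearman's rho 0.61, 0.75 and 0.80). For the ethanol/glycerol changes r was 0.95, 0.98 and 0.95 in the same order (rho 0.86, 0.89 and 0.85).

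For some pairs with an added transcript the TPM ratio did not follow the count ratio. RPL14, a 60S pair, had a count ratio change of -1.32 ± 0.07, -1.19 ± 0.07 and -1.24 ± 0.07 in ethanol/glycerol in LCY002, LCY001 and BY4741, the second largest in LCY002, LCY001 and BY4741 alike. By TPM the changes were -0.27 ± 0.05, -0.47 ± 0.05 and -0.37 ± 0.05. In BY4741 RPL14B had 761, 737 and 792 CPM in ethanol/glycerol against 735, 742 and 728 CPM in glucose and was not called, and it stood at 546 ± 42.3 TPM in ethanol/glycerol against 793 ± 5.25 TPM in glucose. RPL18, another 60S pair, changed by -0.61, -0.65 and -0.78 by counts and by 0.25, 0.11 and 0.24 by TPM (SE 0.04 each). RPL18B had a mean effective length of 2477 bases in BY4741 in ethanol/glycerol and 1226 in glucose, in a gene that spans 993 bases. RPL7, a 60S pair whose lengths differed by at most 1.1 fold, gave like values on both scales in galactose. RPL22 and RPS9 did so in BY4741 in ethanol/glycerol (-0.77 and 0.98 by counts, -0.78 and 0.98 by TPM). In LCY002 in ethanol/glycerol RPS9 changed by -0.18 by counts, called lower, and by -0.025 by TPM, not called. In LCY001 it changed by 0.625 by counts and 0.728 by TPM. RPL7 in LCY002 in ethanol/glycerol changed by -0.258 by counts and -0.353 by TPM. RPL7 changed by 0.50, 0.66 and 0.69 by counts in galactose (SE 0.07 each) and 0.50, 0.69 and 0.69 by TPM (SE 0.05 each).

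Ribosomal protein genes as a class stood lower on galactose than on glucose and lower again on ethanol/glycerol, in all 3 strains. They took 13.5%, 13.5% and 14.2% of all counts in the 3 glucose libraries of LCY002. The galactose libraries gave 11%, 11% and 11.2%, and those on ethanol/glycerol 8.03%, 7.85% and 8.02%. In LCY001 the shares were 13.5%, 13.9% and 12.9%, then 11%, 10.8% and 11.5%, then 9.59%, 9.38% and 9.55% in the same order of carbon sources. In BY4741 they were 16%, 15.7% and 15%, then 11.6%, 12.2% and 12.1%, then 8.81%, 9.19% and 9.79%. No library of 1 carbon source overlapped another within a strain. With 3 libraries a group, the exact permutation test (two-sided) cannot go below 0.1, the value it gave for each of these 6 carbon comparisons. In bulk RNA, fewer cells that express a gene and less RNA per cell cannot be told apart.

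**Figure D3:**
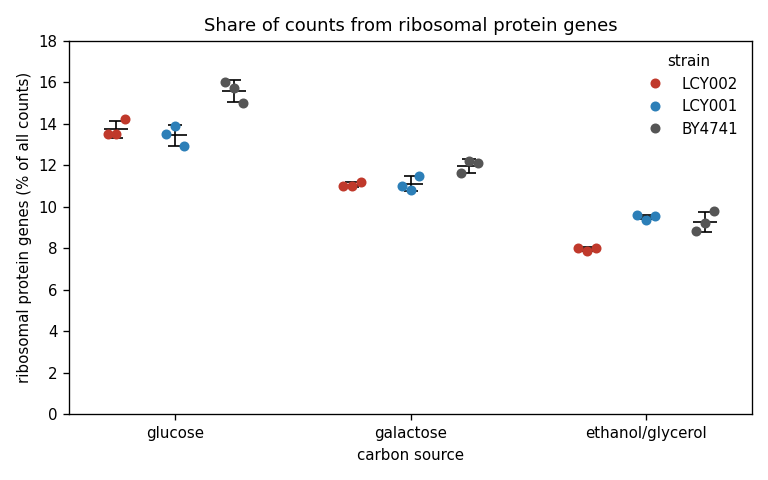
Percent of all counts in a library that fall on the 137 ribosomal protein genes, by carbon source and strain; points are libraries and bars the mean and SD of 3. In glucose BY4741 stands at 15.6% ± 0.537 and both plasmid strains lower, and in ethanol/glycerol LCY002 stands lowest at 7.97% ± 0.104.

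Gene by gene, 131 of 133 fell and 1 rose in ethanol/glycerol against glucose in LCY002, 124 fell and 3 rose in LCY001, and 130 fell and 1 rose in BY4741. Over all 5692 genes tested 40.4%, 37.9% and 37.7% were lower and 43.2%, 40.2% and 43.7% higher, in all 83.5%, 78.1% and 81.4%. The median log2 fold change of the class was -0.96, -0.60 and -0.94 in LCY002, LCY001 and BY4741, beside 0.03, 0.01 and 0.05 for all genes. Without the 16 members with added transcripts 116, 112 and 115 of 117 fell. Genes of the 60S (median -0.95 in LCY002), the 40S (-0.96) and the stalk (-0.99) had close medians, as did genes with an intron (-0.95) and without (-0.97). The A copies and the B copies had medians of -0.98 and -0.94 in LCY002, -0.61 and -0.54 in LCY001 and -0.93 and -0.92 in BY4741. Beside RPL9A the largest falls were RPS22A (-1.34 ± 0.06) and RPS26B (-1.28 ± 0.06) in LCY002, RPS29A (-0.98 ± 0.17) and RPL1A (-0.98 ± 0.07) in LCY001, and RPL1A (-1.36 ± 0.07) and RPS26B (-1.32 ± 0.06) in BY4741. RPS26 and RPS29 encode 40S proteins. The members that rose were RPL9B in LCY001 and BY4741, RPL22B in LCY001, and RPL14B, uncertain as above, in LCY002 and LCY001.

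In galactose against glucose 126 of 133 fell and 0 rose in LCY002, 121 fell and 1 rose in LCY001, and 127 fell and 0 rose in BY4741, against 26.4%, 28.3% and 31.7% of all genes lower and 33.7%, 31.1% and 33.9% higher, in all 60.1%, 59.3% and 65.5%. The medians were -0.40, -0.37 and -0.50, beside 0.03, 0.01 and 0.01 for all genes. Of the members without an added transcript, RPL37A and RPS29A were called lower in none of the 3 strains, and both varied widely among replicates: RPL37A had 263, 268 and 330 CPM in galactose against 314, 283 and 355 CPM in glucose in LCY002. RPL7B, the minor copy of a 60S pair, fell most, by 0.95 ± 0.08, 1.01 ± 0.08 and 1.25 ± 0.08 on the log2 scale in LCY002, LCY001 and BY4741 (its TPM in BY4741 was 177 ± 11.3 in galactose against 372 ± 21.5 in glucose). RPL7B holds a small nucleolar RNA gene within its span, so its counts are uncertain in this and every other comparison. RPS9A, the minor copy of a 40S pair, fell by 0.62 ± 0.06, 0.64 ± 0.06 and 1.01 ± 0.06. RPS30B in LCY002 (-0.63 ± 0.18), RPL4B in LCY001 (-0.67 ± 0.05) and RPS14B in BY4741 (-0.86 ± 0.07) were the others among the 3 largest falls. The rise called in LCY001 was RPL18B, whose added transcript makes it uncertain.

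The stalk proteins, which recruit translation factors to the ribosome, and the ubiquitin fusions, which also supply the cell with ubiquitin, followed the class. RPP0, the stalk base, had 1700, 1660 and 1770 CPM in ethanol/glycerol against 3730, 3680 and 3860 CPM in glucose in LCY002, with no overlap. All 5 stalk genes fell in both carbon comparisons in all 3 strains, with medians from -0.99 in LCY002 and -1.04 in BY4741 to -0.66 in LCY001 in ethanol/glycerol. RPS31, fused to ubiquitin on the 40S side, fell by 1.2 ± 0.07, 0.92 ± 0.07 and 1.29 ± 0.07 on the log2 scale in LCY002, LCY001 and BY4741 in ethanol/glycerol. RPL40A and RPL40B, the fusions on the 60S side, fell by 1.00 ± 0.13 and 0.93 ± 0.06 in LCY002, 0.64 ± 0.13 and 0.59 ± 0.06 in LCY001, and 0.83 ± 0.13 and 1.01 ± 0.06 in BY4741. RPL40B carries an added transcript. Its TPM in BY4741 was 1480 ± 76.7 in ethanol/glycerol against 2610 ± 129 in glucose.

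LCY002 was set against LCY001 to compare strains that differ in the array. Their HIS3 levels also differed, at 411 to 686 CPM in LCY002 and 1050 to 1490 CPM in LCY001. Effects of the array and of the HIS3 level cannot be told apart here. In ethanol/glycerol 94 of 133 ribosomal protein genes were lower in LCY002 and 0 higher, against 30.4% of all genes lower and 29.4% higher (59.8% in all), with a median log2 fold change of -0.21. The class took 7.97% ± 0.104 of counts in LCY002 and 9.51% ± 0.111 in LCY001 (exact permutation p 0.1, the smallest possible). RPL22B (-0.88 ± 0.08), RPS9A (-0.62 ± 0.06) and RPS21A (-0.43 ± 0.06) were lowest. RPS21A, a 40S protein gene, had 92.8, 91.8 and 97.9 CPM in LCY002, against 133, 122 and 125 CPM in LCY001. With BY4741 in place of LCY001, 68 were lower and 0 higher, against 31.5% of all genes lower and 28.2% higher, with a median of -0.15 beside -0.02 for all genes.

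In glucose the direction depended on the control, and in galactose on the control and on the scaling. In glucose 75 were higher in LCY002 than in LCY001 and 1 lower, against 28.5% of all genes higher and 25.3% lower (53.7% in all). In galactose 51 were higher and 1 lower, against 20.2% and 18.1% (38.2% in all). The medians were 0.16 and 0.14, beside 0.01 and 0.00 for all genes. With total counts as the scale, which moved the median of all genes by -0.11 in glucose and -0.14 in galactose, 15 were higher and 3 lower in glucose and 6 higher and 8 lower in galactose. Set against BY4741, LCY002 had 2 higher and 55 lower in glucose, against 17.7% of all genes higher and 20.7% lower. In galactose 8 were higher and 10 lower, a smaller share than the 19.8% and 18% of all genes. The medians were -0.13 and -0.03, beside -0.02 and 0.00 for all genes. The share of counts was 13.7% ± 0.382 in LCY002 and 13.5% ± 0.51 in LCY001 in glucose, and 11.1% ± 0.135 and 11.1% ± 0.336 in galactose, with overlapping libraries (exact permutation p 0.5 and 0.9). With the array genes and HIS3 left out of the total the libraries did not overlap and LCY002 was higher. The shares were then 15.7%, 15.6% and 16.4% in LCY002 against 14.8%, 15.3% and 14.2% in LCY001 in glucose, and 12.8%, 12.8% and 13% against 11.9%, 11.8% and 12.4% in galactose. Without the third LCY002 library in glucose the count higher was 34, and without the third LCY001 library 38. In galactose it was 27 without the third LCY002 library, and 33 and 31 without the first and the second LCY001 library. RPS9A was highest on both carbon sources (0.61 ± 0.06 and 0.63 ± 0.06), RPS30B (0.60 ± 0.18) and RPL7B (0.50 ± 0.08) followed in glucose, and RPL7B (0.56 ± 0.08) and RPL22B (0.48 ± 0.08) in galactose. The members called lower were RPL19A in glucose and RPL18B in galactose, both with added transcripts.

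LCY001 was set against BY4741 to compare strains that differ in the HIS3 plasmid. These strains therefore also differ in a working HIS3 gene. Effects of the plasmid, of histidine synthesis and of the medium cannot be told apart here. In glucose 115 of 133 were lower in LCY001 and 0 higher, against 27.8% of all genes lower and 27.6% higher (55.4% in all), with a median of -0.30. RPS27A (-0.53 ± 0.10), RPS25B (-0.45) and RPL23A (-0.45) were lowest, the first a 40S gene with 56.5, 68.5 and 69.1 CPM in LCY001 against 100, 90.1 and 90 CPM in BY4741. The class took 13.5% ± 0.51 of counts in LCY001 and 15.6% ± 0.537 in BY4741, with no overlap (exact permutation p 0.1). In galactose 73 were lower and 1, RPS9A, higher, against 18.2% of all genes lower and 20.7% higher (38.9% in all), with a median of -0.17. The lowest there were RPL19A (-0.41, added transcript), RPS10B (-0.30) and RPS25B (-0.30). The lower count in galactose was 47 without the first LCY001 library and 44 without the second BY4741 library. In ethanol/glycerol 2 were higher, RPS21A (0.30 ± 0.06) and RPL9A (0.28 ± 0.08), and 0 lower, against 6.59% of all genes higher and 4.92% lower (11.5% in all). Without the third BY4741 library in ethanol/glycerol 31 were higher. Without the first or second BY4741 library, or the third LCY001 library, 1 was, and without the second LCY001 library 4.

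**Figure D4:**
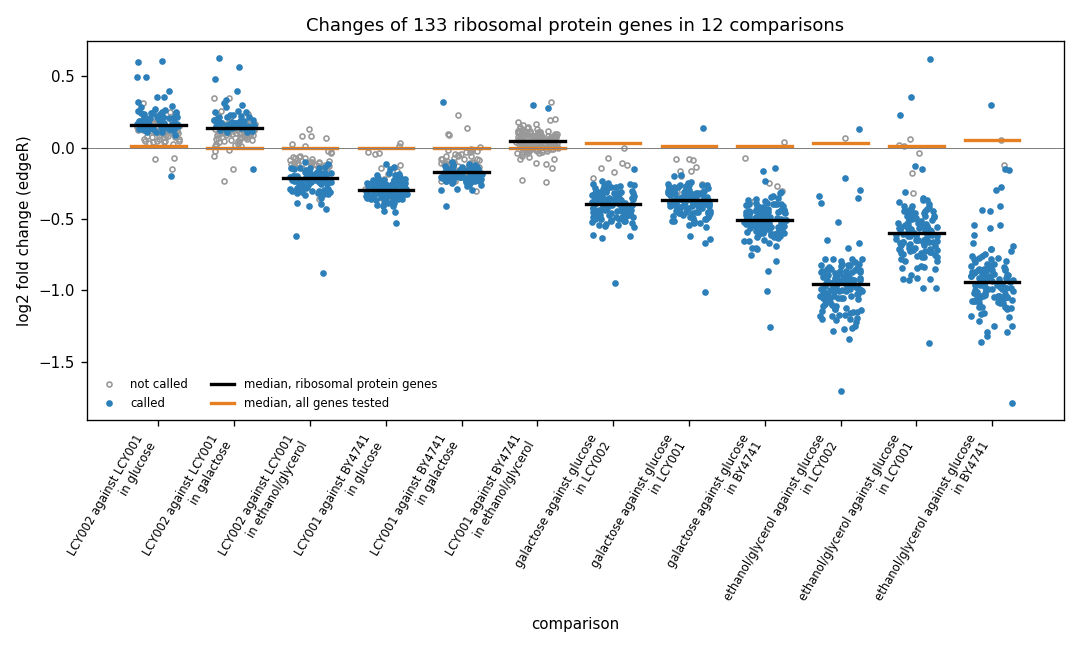
Log2 fold changes of the 133 tested ribosomal protein genes in the 12 comparisons; filled points were called by edgeR, open points were not, and the bars give the median of these genes and of all genes tested. The class median is lowest in ethanol/glycerol against glucose, at -0.96 in LCY002, -0.60 in LCY001 and -0.94 in BY4741. With total counts as the scale the medians of the 2 leftmost comparisons are 0.05 and 0.00.

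The carbon response, read as a signed log2 change, differed between strains by the test of that difference. For ethanol/glycerol minus glucose, the log2 change of 114 of 133 genes was lower in LCY002 than in LCY001 and that of 1 higher. For most of the 114 this was a larger fall in LCY002. Of all genes 60.5% were called in either direction. In LCY001 minus BY4741 the log2 change was higher for 110, mostly a smaller fall in LCY001, and lower for 0, against 46% of all genes. For galactose minus glucose 5 were called between LCY002 and LCY001, against 47.3% of all genes, and 25 between LCY001 and BY4741, against 50.9%.

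RPL22B and RPS9A, both minor copies with an intron, had the most negative LCY002 minus LCY001 differences in the ethanol/glycerol response, -1.23 ± 0.11 and -1.22 ± 0.08 on the log2 scale. RPL22 is known to restrain the splicing of its own transcripts, RPL22B above all, and RPS9A is likewise held down by its own protein through splicing. Splicing was not measured here, and its part in the strain differences was not tested. RPL22B (chromosome VI, 64243 to 64932, minus strand) had 22.1, 19.5 and 22 CPM in LCY002 in ethanol/glycerol, against 41.4, 34.8 and 40.5 CPM in LCY001 and 34, 32 and 37 CPM in BY4741. In glucose it had 42.1, 41.4 and 43.9 CPM in LCY002, 34.7, 33 and 32.1 CPM in LCY001, and 42.9, 42.7 and 39.2 CPM in BY4741. LCY002 was thus the lowest strain in ethanol/glycerol with no overlap, and above every LCY001 library in glucose. In ethanol/glycerol against glucose RPL22B fell by 1.00 ± 0.08 on the log2 scale in LCY002 and by 0.28 ± 0.07 in BY4741, and rose by 0.23 ± 0.07 in LCY001, the last not called without the first LCY001 library in ethanol/glycerol (0.18).

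RPS9A (chromosome XVI, 404950 to 406044, plus strand) had 49.7, 49.6 and 56.3 CPM in LCY002 in ethanol/glycerol, against 77.8, 74.2 and 86.4 CPM in LCY001 and 75.3, 72.5 and 78.9 CPM in BY4741. In glucose it had 126, 120 and 127 CPM in LCY002, against 84.2, 82.1 and 78.5 CPM in LCY001 and 90.2, 83.7 and 79 CPM in BY4741. In galactose it had 79.6, 82 and 81.4 CPM in LCY002, 50.9, 54.6 and 51.7 CPM in LCY001, and 40, 43.5 and 42.3 CPM in BY4741. LCY002 was highest in glucose and galactose and lowest in ethanol/glycerol, without overlap in any of the 3. Against BY4741, RPS9A in LCY002 had log2 fold changes of 0.56 (glucose), 0.95 (galactose) and -0.54 (ethanol/glycerol), with edgeR adjusted p of 5.2e-09, 4.65e-13 and 1.56e-08. In ethanol/glycerol against glucose RPS9A fell by 1.26 ± 0.06 on the log2 scale in LCY002 and by 0.16 ± 0.06 in BY4741, and its change of -0.04 ± 0.06 in LCY001 was not called (adjusted p 0.54). Its partner RPS9B carries an added transcript whose effective length moved by 1.19 fold, so the ratio of the pair is uncertain.

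**Figure D5:**
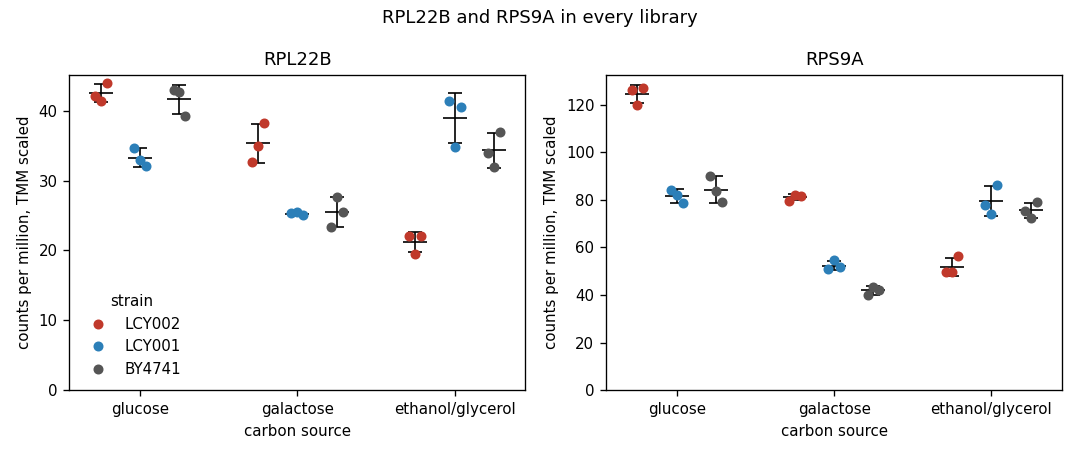
CPM (counts scaled by TMM, linear axis from 0) of RPL22B and RPS9A in each of the 27 libraries, by carbon source and strain; bars give the mean and SD of 3 libraries. LCY002 in ethanol/glycerol stands at 21.2 ± 1.46 CPM for RPL22B and 51.9 ± 3.85 CPM for RPS9A, below both other strains.

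Between strains the paralog ratios moved little. Among the 45 pairs free of added transcripts 7, 5 and 8 were called for LCY002 against LCY001 in glucose, galactose and ethanol/glycerol, or 15.6%, 11.1% and 17.8%, against 53.7%, 43.6% and 51.8% of all such pairs. For LCY001 against BY4741 the counts were 5, 7 and 2, or 11.1%, 15.6% and 4.44%, against 50.2%, 41.3% and 11.2%. RPL9 had the largest shift of these in glucose, where the log2 ratio was lower in LCY002 than in LCY001 by a change of -0.34 ± 0.06. RPL11, a 60S pair, had the largest in ethanol/glycerol, 0.25 ± 0.03 higher in LCY002, and RPS22 in galactose, -0.26 ± 0.06. For LCY001 against BY4741 RPL15 was largest in glucose and galactose (-0.20 ± 0.08 and -0.27 ± 0.08) and RPS21 in ethanol/glycerol (0.25 ± 0.07). These 3 were not called in a fit of only the 6 libraries compared.

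Genes that work with ribosomal proteins were read from 3 lists. The 7 dedicated chaperones, each of which escorts 1 or a few ribosomal proteins to assembly, fell with the class in ethanol/glycerol against glucose: 7 of 7 fell in LCY002, 6 of 7 in LCY001 and 7 of 7 in BY4741, with medians of -1.09, -0.46 and -0.98, against 40.4%, 37.9% and 37.7% of all genes lower. SQT1, which protects Rpl10, had 78.1 ± 6.59 CPM in ethanol/glycerol against 175 ± 1.07 CPM in glucose in LCY002. In LCY001 it had 105 ± 7.64 against 127 ± 2.64 CPM, and in BY4741 98.8 ± 10.7 against 201 ± 5.52 CPM. TSR2, the chaperone of Rps26, changed by -1.25 ± 0.06, -0.49 ± 0.06 and -1.13 ± 0.06, and ACL4, the chaperone of Rpl4, by -1.27 ± 0.05, -0.77 ± 0.05 and -1.19 ± 0.05. Of 19 elongation and ribosome-bound factors 19, 18 and 19 fell in LCY002, LCY001 and BY4741, against the same shares of all genes, with medians of -0.95, -0.68 and -0.95. Among them ZUO1, a ribosome-bound cochaperone, changed by -1.49 ± 0.05, -1.05 ± 0.05 and -1.42 ± 0.05. STM1, a ribosome-binding protein, changed by -0.95, -0.74 and -1.07 (SE 0.04 each), and TEF4, an elongation factor 1B subunit, by -1.32, -0.90 and -1.29 (SE 0.04 each).

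The 11 transcription regulators of ribosomal protein genes went in both directions. In ethanol/glycerol against glucose 3 rose and 2 fell in LCY002, 8 rose and 1 fell in LCY001, and 5 rose and 1 fell in BY4741, with medians of -0.01, 0.30 and 0.09. The shares of all genes were 43.2%, 40.2% and 43.7% higher and 40.4%, 37.9% and 37.7% lower. ABF1, a general regulatory factor, rose by 0.85 ± 0.05, 1.45 ± 0.05 and 1.39 ± 0.05. STB3, a repressor of growth genes, rose by 0.77, 0.47 and 0.63 (SE 0.04 each), and CRF1, a corepressor at these promoters, by 0.91, 0.66 and 0.77 (SE 0.08 each). IFH1, the coactivator, stood at 229 ± 15.7 CPM in ethanol/glycerol and 232 ± 21.3 CPM in glucose in LCY002, where it was not called. In LCY001 it stood at 336 ± 31.9 against 153 ± 16.2 CPM and in BY4741 at 278 ± 20.9 against 219 ± 12.6 CPM, both called higher. In galactose against glucose 7, 5 and 7 of the 7 chaperones and 17, 17 and 18 of the 19 factors fell in LCY002, LCY001 and BY4741 (1 chaperone rose in LCY001), while 4, 8 and 4 regulators rose and 2, 0 and 2 fell. Of all genes 26.4%, 28.3% and 31.7% fell and 33.7%, 31.1% and 33.9% rose in those comparisons.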

How the data were processed

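Poly(A) RNA was purified on oligo(dT) beads and copied with random primers, per the labels' protocols. The deposited values are RSEM expected counts (estimated counts) and TPM per gene, made by the authors per the file headers. The tools, per the submitters' processing notes, were RSEM 1.2.8, HISAT2 2.1.0 and Bowtie2 2.2.5 on build R64. Of 5995 gene IDs, 5980 matched the RefSeq annotation in the reference. Expected counts were rounded and tested with edgeR 4.0.16 in R 4.3.3 (robust quasi-likelihood, TMM, filterByExpr, 1 mean per group over 27 libraries), which kept 5692 genes. A gene was called at an adjusted p (Benjamini-Hochberg) under 0.05. The ratio of paralogs, log2((A + 0.5)/(B + 0.5)), was tested with limma 3.58.1 over 637 paralog pairs of the genome whose weaker copy averaged at least 10 counts. Of 678 pairs, 677 are reciprocal best hits (BLAST 2.17.0) of proteins translated from the reference genome. The plan had been to give ratios without a test if no protein table was at hand. Replicates are individual colonies. Chi-square per degree of freedom between replicates was 3.38 to 20.3, so no pair of libraries matched within sampling noise.

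The members, lists and tests were chosen with earlier results of these data known. Genes named are up to 3 largest called rises and falls of each comparison, the 3 called pairs with the largest shift, the most and least even pairs, the highest and lowest members, the stalk and ubiquitin fusion genes, and up to 3 called genes per list. RPL8, RPS22, RPL1, RPS14, RPS19, RPL11, RPL37A, RPS29A, SQT1, TSR2, ACL4 and IFH1 were named or given at length after their values were seen. A gene that this rule names is not reported here. Alternatives were RLE size factors, total counts, TMM without the ribosomal protein genes, no low-count filter, DESeq2 1.42.0, only the 6 libraries compared, a replicate block, BY4741 as the control, 5 counts added to each copy, at least 100 counts in the weaker copy, and each library left out. TPM ratios and the sets without added transcripts were chosen after seeing the data. Both tests were checked on simulated data.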

Additional observations from a re-analysis of the deposited data

Results flagged for a closer look

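The carbon response differed between strains by the test of the interaction (edgeR, adjusted p below 0.05). For LCY002 minus LCY001 in ethanol/glycerol minus glucose, 115 of 133 ribosomal protein genes were called, 1 higher and 114 lower, against 60.5% of all genes in either direction, with a median of -0.36. RPL22B had the largest value there, -1.23 ± 0.11 (adjusted p 3.69e-10), and RPS9A was close at -1.22 ± 0.08. For LCY001 minus BY4741 in the same carbon comparison 110 were called, all 110 higher, against 46% of all genes, with a median of 0.34. RPL39, a short 60S protein gene with an added transcript, had the largest value, 0.67 ± 0.23 (adjusted p 0.0204). Both interactions use the LCY001 libraries, so they are not independent of each other. The within-strain medians were -0.96 in LCY002, -0.60 in LCY001 and -0.94 in BY4741.

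For galactose minus glucose 25 were called for LCY001 minus BY4741, 24 higher and 1 lower, against 50.9% of all genes, and 5 for LCY002 minus LCY001, 3 higher and 2 lower, against 47.3%. RPL19A, a 60S protein gene with an added transcript, had the largest value in both, -0.44 ± 0.06 and 0.51 ± 0.06. Its mean effective length in glucose was 828 bases in LCY001, 665 in LCY002 and 678 in BY4741. For LCY002 against LCY001 the log2 ratio of RPL19A to RPL19B changed by -0.288 in glucose and 0.241 in galactose by counts, both called. By TPM it changed by -0.02 and 0.049, neither called. The other 4 genes called for LCY002 minus LCY001 were RPL3, RPL4B, RPL9B and RPL18B. The cause of these differences was not tested.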

How the results depend on the processing

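Of 1348 values recomputed, 1270 kept their direction and their side of the threshold, or stayed within the margin for counts and shares. Among the 992 for named genes and pairs 957 did, 32 lost their call and 3 reversed. The 3 are TPM ratios, each for a pair with an added transcript, in comparisons whose naming rule chose that pair: RPL35 for LCY001 against BY4741 in ethanol/glycerol, -0.1 against 0.10 by counts, and RPL18 in galactose, 0.2 in LCY001 and 0.38 in BY4741, against -0.52 and -0.48 by counts. RPL18 also turned by TPM in galactose in LCY002 (0.33 against -0.28) and in ethanol/glycerol in all 3 strains.

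The share of the 133 genes called for LCY002 against LCY001 was 13.5% in glucose and 10.5% in galactose with total counts, with more lower than higher in galactose. With BY4741 as the control it was 42.9% and 13.5%, mostly lower in glucose and with slightly more lower than higher in galactose. The galactose interaction of LCY002 and LCY001 gave 5.26% with total counts, mostly lower. LCY001 against BY4741 in ethanol/glycerol gave 2.26% with RLE, 3.01% with total counts, 2.26% with TMM without the class, 5.26% with DESeq2 and 0.752% in a fit of the 6 libraries. Without added transcripts 11.1% of pairs were called for LCY002 against LCY001 in galactose. In fits of 6 libraries 0% of pairs were called for LCY001 against BY4741 in ethanol/glycerol and 26.8% in galactose against glucose in LCY001. Without the array genes and HIS3 in the total, the class took 15.9%, 12.9% and 8.71% of counts in LCY002, 14.8%, 12% and 9.98% in LCY001, and 16.9%, 13.1% and 9.72% in BY4741, in glucose, galactose and ethanol/glycerol.

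With single libraries left out, the share of genes called ran from 26.3% to 66.9% for LCY002 against LCY001 in glucose and from 21.1% to 44.4% in galactose. For LCY001 against BY4741 it ran from 33.8% to 65.4% in galactose and from 0.752% to 23.3% in ethanol/glycerol, where the share of pairs ran from 0% to 7.14%. The share of pairs ran from 7.14% to 26.8% for LCY001 against BY4741 in glucose and from 30.4% to 42.9% in galactose against glucose in LCY001. The cause of these changes was not tested.

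With a replicate block the shares of genes called for LCY002 against LCY001 were 54.1%, 39.1% and 66.2% in glucose, galactose and ethanol/glycerol. Same-numbered libraries correlated from -0.21 to 0.25 in their deviations from the group means, and in 0 comparisons was every pair above 0.1. These correlations gave no sign that the numbers pair the samples, but with 3 libraries a group they cannot exclude it.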
